A study of Mus musculus with 19 samples.

Results

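The genes described here encode the machinery of MHC class II antigen presentation in brown adipose tissue (BAT). They were found in the deposited expression table by gene symbol, from a list of 8: H2-Aa, H2-Ab1, H2-Eb1, H2-DMa, H2-DMb1, Cd74, Ciita and Ctss. Of the 20554 genes listed there, 7 are of these 8, and H2-Eb1 was not analysed here. The question was how their expression differs between old and young mice, and between cold and room temperature at each age.

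RNA-seq was performed on BAT from 19 male wild-type C57BL6J mice, with a library from each. Young mice (3 months) were kept at 24°C, called room temperature (n = 5), or at 4°C, called cold (n = 5), and old mice (24 months) at 24°C (n = 5) or 4°C (n = 4). During exposure every mouse of each group was alone in its cage, had water, and was given no food or bedding. The labels give the exposure as 5 hr in the treatment protocol and as 24 hr in the study design. The authors' paper states 5 hr for its RNA-seq comparison, which used the young mice. It reports no old mice, so the length of their exposure is not settled. The values are log2(TPM + 1), where TPM is the number of transcripts scaled to gene length and library size, and a gene without reads is at 0. Because whole tissue was sequenced, fewer cells of a type and less RNA per cell cannot be told apart.

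MHC class II molecules are surface proteins made of an alpha and a beta chain, which show peptides from engulfed protein to CD4+ T cells. H2-Aa and H2-Ab1 encode the chains of the molecule I-A, and H2-Eb1 the beta chain of I-E. The chains are assembled on the invariant chain, Cd74, which fills the peptide groove until cathepsin S (Ctss) cuts it down in endosomes, and the pair formed by H2-DMa and H2-DMb1 then exchanges the last fragment for peptide. Ciita, the class II transactivator, switches the genes on without binding DNA itself. It is recruited to class II promoters by the RFX complex on the X box, CREB family proteins on the X2 box and NF-Y on the Y box, and interferon gamma induces it, in part through Irf1. Dendritic cells, B cells and macrophages are the main cells that carry class II molecules, and other cells, adipocytes among them, can be induced to do so.

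The promoter letters through which Ciita acts could be read for some of the genes. Each sequence below is the 150 bases before a transcription start in RefSeq on GRCm38.p6, 5′ to 3′ on the strand of the gene. They are shown because H2-DMa was the member called in the cold in young mice, H2-Aa and H2-DMb1 hold matches, and Ctss is the member outside the H2 complex for which the promoter table has an entry. Those other than H2-DMa were chosen after the values were seen. Capitals mark the letters searched on both strands: ACNGATG for the X box, TGACG for the X2 box and TGATTGG for the Y box.
H2-Aa, chr17:34287824-34287973, minus strand: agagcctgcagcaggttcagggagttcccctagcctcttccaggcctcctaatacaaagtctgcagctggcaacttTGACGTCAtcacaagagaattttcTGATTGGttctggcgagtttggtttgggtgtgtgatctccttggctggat
H2-DMb1, chr17:34153041-34153190, plus strand: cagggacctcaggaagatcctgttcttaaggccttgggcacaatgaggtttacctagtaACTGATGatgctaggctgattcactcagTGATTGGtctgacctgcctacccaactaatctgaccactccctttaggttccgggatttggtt
H2-DMa, chr17:34122682-34122831, plus strand: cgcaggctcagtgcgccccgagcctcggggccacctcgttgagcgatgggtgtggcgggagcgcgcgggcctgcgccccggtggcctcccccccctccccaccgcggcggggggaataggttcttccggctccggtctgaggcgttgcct
Ctss, chr3:95526636-95526785, plus strand: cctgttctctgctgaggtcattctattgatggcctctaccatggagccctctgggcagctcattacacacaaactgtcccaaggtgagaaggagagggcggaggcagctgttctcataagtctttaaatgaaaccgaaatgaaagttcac

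In H2-Aa, the Y box letters began 50 bases before the start, and X2 box letters lay at 74 and 71 bases before it on opposite strands, overlapping in a palindrome. In H2-DMb1, the Y box letters began 63 bases before the start and the X box letters 91 bases before it. The H2-Eb1 promoter held the same order of X and Y box letters, at 88 and 61 bases before its start. No match was found in Ctss or before either of the 2 starts listed for H2-DMa. The annotation holds further H2-DMa starts that were not searched. The H2-DMa stretch printed above begins just beyond Brd2, a gene on the opposite strand that reaches to chr17:34122634. Of all 32851 promoters of the table, cut to the same length, 4.92% held the X box letters, 13.3% the X2 box letters and 5.71% the Y box letters. The Y box letters stood together with X or X2 box letters in 1.22%. Promoters of H2-Ab1, Ciita and Cd74 are not shown.

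The libraries differed in depth and in kind. From what a single read was worth, library depth ranged from 6.98% to 100% of the deepest. The TPM of all listed genes summed to between 128942 and 211321 per library, so the scale was not the same in each. In 4 libraries the predicted gene Gm20594 was listed at 2391 to 2504 TPM, against 33784 to 72030 TPM in the other 15. It took 1.25% to 1.55% of the summed TPM in the 4 libraries and 21.0% to 35.8% in the 15. These 4 were young room temperature replicate 2, old room temperature replicate 1 and old cold replicates 1 and 2, so the kind of library was spread unevenly over the groups, with none in the young cold group. The labels call young room temperature replicate 2 paired-end and the others single-end. The class II genes moved with the kind of library, as did other genes. Their summed level was 107 to 179 TPM in these 4 libraries and 27.2 to 99.4 TPM in the other 15, without overlap. Of the 28 values of the 7 genes in the 4 libraries, 25 lay above all libraries of the same group with high Gm20594, the exceptions being H2-DMa in young room temperature replicate 2 and Ctss in 2 libraries. Over all genes, 50.1% of such values did. For 2 of the 7 genes, Cd74 and Ciita, the 4 libraries were all above the other 15, against 2.58% of all genes. The sums of 14 class I genes (546 to 922 against 306 to 527 TPM) and of 13 other class II genes (940 to 1244 against 440 to 836 TPM) did not overlap between the kinds of library either. Results are therefore given with and without these libraries. BAT identity was clear in every library, with Ucp1, the uncoupling protein of brown adipocytes, between 938 and 5452 TPM. Muscle markers, summed over 6 genes, ranged from 0.647 to 1139 TPM, and their part in the results was not tested.

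The invariant chain was the most abundant member and the transactivator the least. TPM is scaled to gene length, so that levels of different genes can be set side by side. Cd74 (ENSMUSG00000024610, chr18:60803848-60812652 on GRCm38) had a median of 28 TPM over the 19 libraries, with 46 to 1038 reads per library behind its values. H2-Aa (ENSMUSG00000036594, chr17:34282744-34287823) followed at a median of 18.2 TPM. H2-Ab1 (ENSMUSG00000073421, chr17:34257689-34269419) was at 9.60 TPM and Ctss (ENSMUSG00000038642, chr3:95526786-95556403) at 7.47 TPM. The DM genes were far lower, with medians of 1.15 TPM for H2-DMa (ENSMUSG00000037649, chr17:34119541-34139101) and 0.830 TPM for H2-DMb1 (ENSMUSG00000079547, chr17:34153072-34160230). Ciita (ENSMUSG00000022504, chr16:10480059-10528418) had a median of 0.226 TPM. The DM genes and Ciita therefore rested on few reads: at most 51 in a library for H2-DMa, 28 for H2-DMb1 and 57 for Ciita. H2-DMb1 had 0 reads in old room temperature replicate 3, which allows a level of up to 0.534 TPM, and Ciita had 0 reads in old cold replicate 4, which allows up to 0.134 TPM (3 reads, counting error only). Reads of H2-DMb1 may be shared with its near copy H2-DMb2, which was not analysed here. H2-DMa overlaps Brd2, and Ciita overlaps Dexi, each on the opposite strand, and no source used here states whether reads were counted by strand.

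**Figure D1:**
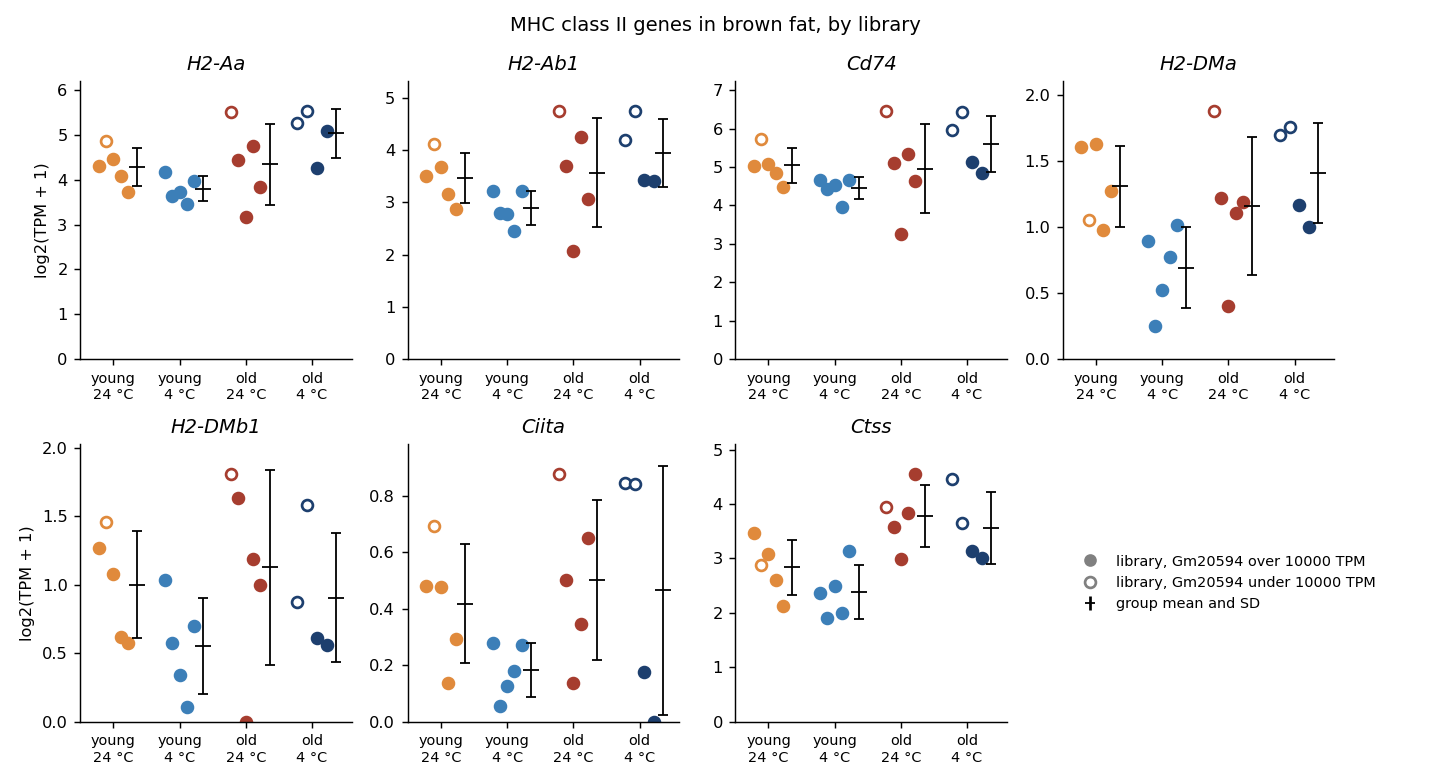
Expression of the 7 class II genes in each of the 19 libraries, as log2(TPM + 1), by age and temperature. Each point is a mouse, open points are the 4 libraries with Gm20594 under 10000 TPM, and bars give the group mean and SD. The open points lie at the top of their groups for H2-Aa, H2-Ab1, Cd74, H2-DMb1 and Ciita, and Ctss is higher on average in both old groups.

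At room temperature, the means of the antigen-binding chains and the invariant chain in old and young BAT differed by less than the spread between mice, and the spread was wider in the old group. H2-Aa was at 18.9, 28.2, 21.2, 15.9 and 12.3 TPM in the young room temperature libraries and at 45.0, 20.8, 8.0, 26.0 and 13.2 TPM in the old ones. The old values lay on both sides of the young ones. On the log2 scale the means were 4.29 ± 0.42 in young and 4.35 ± 0.90 in old mice (SD, n = 5 each). Cd74 was at 31.9, 52.6, 33.1, 28 and 21.5 TPM in young and at 87.4, 33.3, 8.58, 39.6 and 23.7 TPM in old mice. Old replicate 1 was the highest and old replicate 3 the lowest of all 10 values, so that the old SD was 1.17 against 0.46 in the young. Whether the spread itself differed between ages was not tested. H2-Ab1 had means of 3.46 ± 0.48 in young and 3.57 ± 1.04 in old mice, from 6.28 to 16.3 TPM and from 3.21 to 25.9 TPM.

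The cathepsin had the largest difference between old and young mice at room temperature. Ctss was at 10.1, 6.37, 7.47, 5.06 and 3.38 TPM in young and at 14.3, 11, 6.97, 13.2 and 22.6 TPM in old mice. Of the old libraries, 4 were above every young library and old replicate 3 lay within the young range. Its log2 difference was 0.95 (95% confidence interval 0.23 to 1.67, limma adjusted p = 0.569). It did not pass the test over all genes, and without the 4 libraries it was 0.92 (adjusted p = 0.517). With limma, 0 of the 7 members were called at an adjusted p under 0.05, where 0.0826% of all 16957 genes tested were called, and 1, Ctss, had an unadjusted p under 0.05, as 6.02% of all genes did. Fitted to reads recovered from the TPM steps with voom, 0 were called as well, with an adjusted p of 0.0615 for Ctss. For 0 of the 7 genes were the groups apart without overlap, against 1.08% of all genes higher and 0.537% lower in old mice. The other members had log2 differences between -0.15 for H2-DMa and 0.13 for H2-DMb1, with intervals that all included 0. Some of these differences changed sign when a library was left out, and Cd74 went from -0.08 to 0.34 without old room temperature replicate 3.

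In the cold, all 7 members were higher on average in old mice, but none passed the test over all genes. H2-Aa was at 17.1, 11.5, 12.3, 10.0 and 14.6 TPM in the young cold libraries and at 37.3, 45.6, 18.2 and 32.9 TPM in the old cold ones. Its lowest old value was above its highest young one. The difference in log2 means, 5.04 ± 0.55 (n = 4) against 3.80 ± 0.28 (n = 5), was 1.24 (SE 0.38, limma adjusted p = 0.451, unadjusted p = 0.00492). H2-Ab1 was at 8.23, 5.90, 5.88, 4.46 and 8.34 TPM in young and at 17.4, 25.7, 9.75 and 9.60 TPM in old mice, a log2 difference of 1.05 (SE 0.44). Old replicates 3 and 4 were just above the highest young library, and replicates 1 and 2, both with low Gm20594, well above it. Cd74 was at 24.5, 20.5, 22.1, 14.7 and 24.3 TPM in young and at 61.4, 86.1, 34.0 and 27.9 TPM in old mice, a log2 difference of 1.15 (SE 0.48). It too was separated without overlap, with the same 2 libraries highest. These 3 genes without overlap compare with 0.92% of all genes that were higher without overlap in old mice.

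For the DM genes, the transactivator and the cathepsin, the old and young groups overlapped in the cold. H2-DMa was at 0.855, 0.190, 0.436, 0.706 and 1.03 TPM in young and at 2.24, 2.39, 1.25 and 1.0 TPM in old mice, a log2 difference of 0.72 (SE 0.25). Only the deepest young library, replicate 5, reached the lowest old value. H2-DMb1 differed by 0.35 (SE 0.33), between 0.0783 and 1.04 TPM in young and between 0.476 and 1.99 TPM in old mice. Ciita was at 0.794 and 0.792 TPM in old replicates 1 and 2 but at 0.130 and 0 TPM in replicates 3 and 4, and between 0.0395 and 0.214 TPM in young mice. The old cold group thus held both the highest Ciita values among cold libraries and one without a read. Ctss, at 4.13, 2.75, 4.63, 2.98 and 7.85 TPM in young and 21.1, 11.5, 7.74 and 7.08 TPM in old mice, differed by 1.18 (SE 0.36, limma adjusted p = 0.437). Young replicate 5 lay within the old range. Differences of low genes on this scale are reduced by the 1 added to TPM, and with 0.1 added instead H2-DMa differed by 1.36 and Ciita by 0.70, beside 1.30 for H2-Aa.

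Over the members in the cold, the median log2 difference was 1.05, and over all genes -0.00. With limma, 0 of 7 members were called at an adjusted p under 0.05 or under 0.25, where 0.0295% and 0.212% of all genes were, and 5 had an unadjusted p under 0.05, as did 5.76% of all genes. Voom called 0. Weighting each library by its spread called 5 of the 7, all but H2-DMb1 and Ctss, among 942 genes called higher and 110 lower. Without the 4 libraries, which left 2 old cold mice, the median fell to 0.53 and 6 of 7 differences were above 0. H2-Aa then differed by 0.88 (adjusted p = 0.159), Cd74 by 0.54, Ctss by 0.69 and Ciita by -0.09. In that fit the median of all genes moved to -0.13, with 28 genes called higher and 1311 lower. Of the 2 old cold mice kept, replicate 4 stood apart. Its median log2 value over all genes tested was 0.39, against 0.70 to 1.08 in the other libraries, and its summed TPM was the lowest. With only that library left out, the median of all genes was 0.08, with 163 genes called higher and 12 lower. All 7 members were then above 0, with a median of 1.22. Its part in the smaller differences was not tested.

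**Figure D2:**
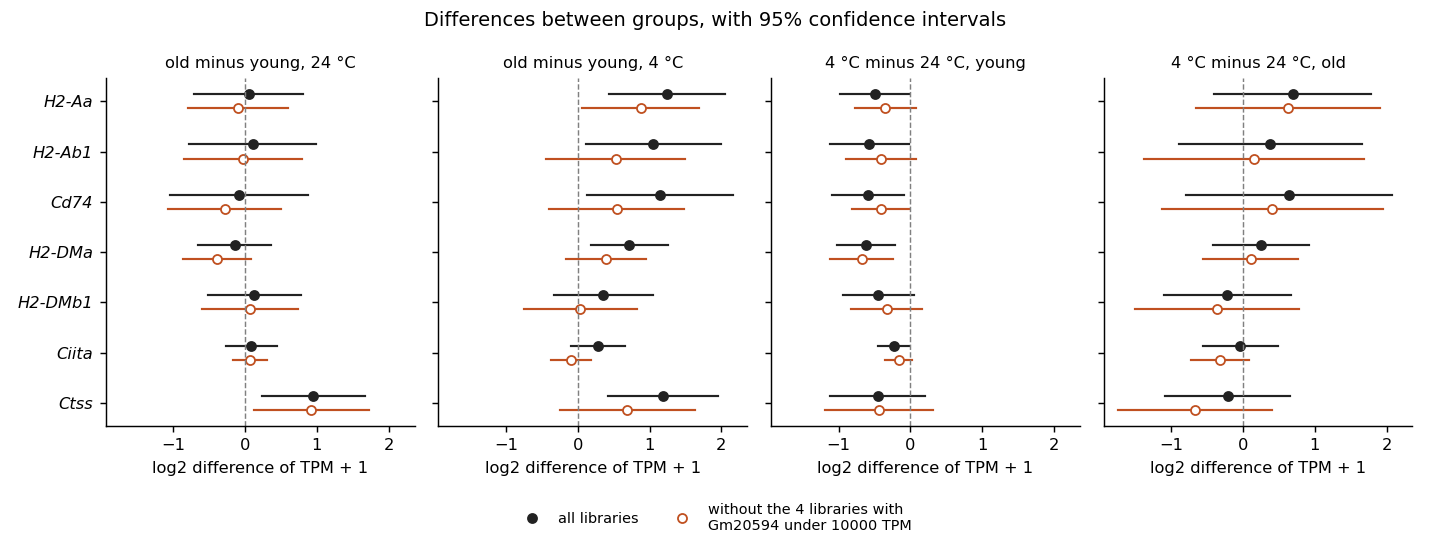
Log2 difference of each class II gene between groups, with 95% confidence intervals from limma, for old minus young at both temperatures and for cold minus room temperature at both ages. Filled points use all libraries and open points leave out the 4 with Gm20594 under 10000 TPM. With all libraries, the differences between ages lie between -0.15 and 0.13 at room temperature except for Ctss at 0.95 and all above 0 in the cold, and those for cold in young mice are all below 0.

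Averaged over both temperatures, Ctss was the member with the largest difference between old and young mice, at 1.07 (SE 0.25, interval 0.54 to 1.59). Its limma adjusted p was 0.121, so 0 of 7 members were called at 0.05, where 0.0944% of all genes were, and 1, Ctss, at 0.25, where 0.643% of all genes were called higher. H2-Aa, at 0.65 (interval 0.09 to 1.2), also had an unadjusted p under 0.05, and so 2 of 7 did, against 6.06% of all genes. Ctss did pass 0.05 with voom (log2 difference 1.25, adjusted p = 0.00881) and when TPM were rescaled without Gm20594 (1.17, adjusted p = 0.0302). With a library left out it stayed between 0.92 and 1.16, with adjusted p from 0.0418, without old cold replicate 4, to 0.237. Without the 4 libraries it was 0.81 (adjusted p = 0.168). For the other members that fit gave differences between -0.02 and 0.39, against 0.18 to 0.65 with all libraries.

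Whether the age difference changed with temperature was tested as an interaction. All 7 interaction terms were above 0. Those of Cd74 (1.23, SE 0.66), H2-Aa (1.19, SE 0.52), H2-Ab1 (0.95, SE 0.61) and H2-DMa (0.86, SE 0.35) were above 0.8, and those of H2-DMb1, Ctss and Ciita lay between 0.20 and 0.24. Their order depended on the 1 added to TPM, since with 0.1 added H2-DMa was at 1.68, Cd74 at 1.28 and H2-Aa at 1.25. With limma 0 of 7 were called, where 0.0118% of all genes were, and 2, H2-Aa and H2-DMa, had an unadjusted p under 0.05, as did 4.94% of all genes. Voom called 0 too. Without the 4 libraries the terms of H2-DMb1, Ciita and Ctss were below 0, at -0.04, -0.16 and -0.23.

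In young mice, the class II genes were lower on average in the cold, in a comparison where many genes were called. All 7 differences were below 0, from -0.23 for Ciita to -0.62 for H2-DMa, with a median of -0.50 beside -0.02 over all 16501 genes tested. H2-DMa fell from 2.05, 1.07, 2.09, 0.967 and 1.42 TPM at room temperature to 0.855, 0.190, 0.436, 0.706 and 1.03 TPM in the cold. The highest cold library, replicate 5, lay between the room temperature replicates 4 and 2, so the groups overlapped by that library. The log2 difference of H2-DMa was -0.62 (SE 0.18, limma adjusted p = 0.0331), the 1 call among the 7 at an adjusted p under 0.05, where 16.3% of all genes were called lower. The share of members, 1 of 7, was near that background. Without young room temperature replicate 2, the low Gm20594 library of this comparison, H2-DMa differed by -0.68 (adjusted p = 0.0336), Cd74 by -0.42 and H2-Aa by -0.35. The call was lost without room temperature replicates 1, 3 or 5 and without cold replicates 2, 3 or 4, with adjusted p = 0.0750, 0.0688, 0.0564, 0.0664, 0.0722 and 0.0578 (limma), and log2 differences between -0.64 and -0.51.

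At an adjusted p under 0.25, 6 of 7 members were called lower in the cold, where 28.1% of all genes were, Ctss being the exception. The antigen-binding chains differed by -0.50 for H2-Aa (SE 0.21, adjusted p = 0.124) and -0.57 for H2-Ab1 (SE 0.24, adjusted p = 0.121), and Cd74 by -0.59 (SE 0.23, adjusted p = 0.0866). The values of H2-Aa, Cd74 and Ctss in these libraries are given above, and for each the cold and room temperature values overlapped. For 0 of 7 genes were the groups apart, against 11.5% of all genes lower without overlap. Centring each library on its median moved the median of all genes from -0.02 to 0.12 and left all 7 members below 0, with 0 called.

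In old mice, the class II genes had no common direction in the cold. H2-Aa (log2 difference 0.69, SE 0.48), Cd74 (0.64, SE 0.62), H2-Ab1 (0.38, SE 0.56) and H2-DMa (0.25, SE 0.29) were above 0, and H2-DMb1, Ctss and Ciita between -0.22 and -0.04. With limma 0 of 7 were called, where 0.0253% of all genes were, 0 had an unadjusted p under 0.05, where 8.7% of all genes did, and voom called 0. Each of the 7 overlapped between the groups, against 0.897% of all genes higher and 2.26% lower without overlap. The intervals were wide, from -0.79 to 2.07 for Cd74. Without the 4 libraries, H2-Aa differed by 0.62, Cd74 by 0.41, Ctss by -0.67 and Ciita by -0.32. The comparisons of cold in young and in old mice share no library.

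Regulators of Ciita and of class II promoters were among the genes called for cold in young mice. Of 15 regulators tested, 5 were called lower and 1 higher at an adjusted p under 0.05, where 16.3% and 9.61% of all genes were. Irf1, the interferon-induced factor that drives the Ciita promoter, went from between 3.19 and 5.23 TPM at room temperature to between 0.914 and 2.08 TPM in the cold, a log2 difference of -0.97 (limma adjusted p = 0.00133). Jak2, the kinase at the interferon gamma receptor, differed by -0.48 (adjusted p = 0.0177). The RFX subunits Rfx5 (-0.41, adjusted p = 0.00293) and Rfxap (-0.28, adjusted p = 0.0448) were lower, and the NF-Y subunit Nfyc was higher by 0.44 (adjusted p = 0.0334). Ifng itself, which encodes interferon gamma, differed by -0.03. It was at 0 in 14 of the 19 libraries and at most 0.116 TPM in young mice, so a change in it could not be read.

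Interferon-induced genes fell together in the same libraries. Of 11 targets, 10 were called lower in the cold, where 16.3% of all genes were, and the remaining gene, Tgtp1, differed by -0.62 (adjusted p = 0.128), with a list median of -1.03. Examples are the GTPases Gbp2 (-1.62, adjusted p = 0.000829), Igtp (-1.75, adjusted p = 9.91e-05) and Iigp1 (-1.58, adjusted p = 0.00197). Of 14 genes of MHC class I presentation, which shows peptides made inside the cell, 8 were called lower and 1, the chaperone Canx, higher, with a list median of -0.41. Without young room temperature replicate 2, the library of low Gm20594 in this comparison, 2262 of 16426 genes were called lower. Among them were 11 of 11 interferon targets, 6 class I genes and 5 regulators. H2-K1, a class I heavy chain, differed by -0.50 (adjusted p = 0.0365) and B2m, the class I light chain, by -0.43 (adjusted p = 0.115). For cold in old mice limma called 0 of these 11, 14 and 15 genes, but only 0.0253% of all genes were called there. Unadjusted p values below 0.05 were found for 0, 0 and 1 of them, beside 8.7% of all genes. The medians were -0.29 for the interferon targets, -0.13 for class I and -0.16 for the regulators. Above 0 lay 0 of the 11 targets, 3 class I genes and 2 regulators. The count for the targets was also 0 without the 4 libraries and with TPM rescaled without Gm20594. The interaction was called for 0 genes of these lists. Its unadjusted p was below 0.05 for 3, 1 and 1 of their genes, beside 4.94% of all genes. Between old and young mice, 9 of 11 interferon targets were below 0 at room temperature (median -0.30) and 10 above 0 in the cold (median 0.43), and without the 4 libraries 11 were below 0 and 5 above 0.

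Of 13 other genes of class II presentation, 1 was called higher and 0 lower in young mice in the cold, where 9.61% and 16.3% of all genes were, so that the count was no higher than over all genes. The gene called was Ctsl, a cathepsin that also trims the invariant chain, from between 25.8 and 44.8 TPM at room temperature to between 45.1 and 62.4 TPM in the cold, a log2 difference of 0.52 (adjusted p = 0.0257, limma). H2-Ob, a chain of the inhibitor of H2-DM, differed by -0.14 (adjusted p = 0.0686) at levels of at most 0.257 TPM in any group. In old against young mice limma called 0 of the 13 and 0 of the 15 regulators at either temperature, with 0 and 1 at an unadjusted p under 0.05 at room temperature and 1 and 1 in the cold, and list medians between -0.01 and 0.06. Without the 4 libraries 2 of the 13, Ctsl and Ifi30, a thiol reductase of the endosome, and 1 regulator, Creb1, were called lower in old mice in the cold, where 7.79% of all genes were, and the medians were -0.10 and -0.41 beside -0.13 over all genes.

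**Figure D3:**
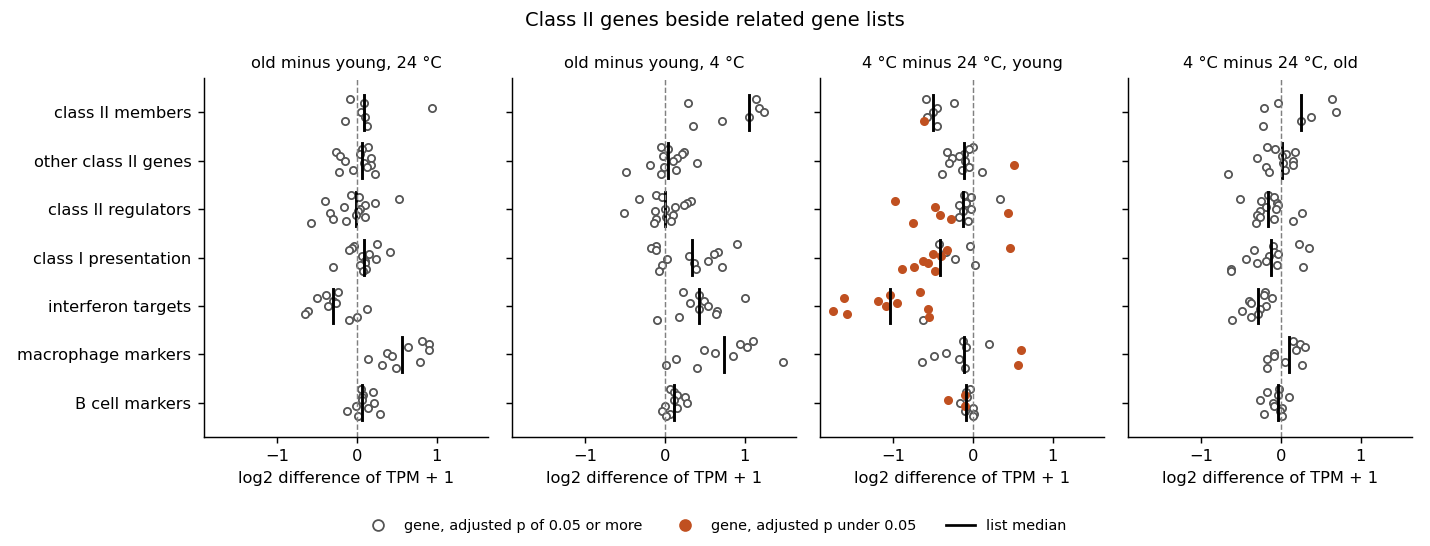
Log2 differences of the class II genes and of 6 related gene lists in the 4 comparisons. Each point is a gene, filled where the limma adjusted p over all genes was under 0.05, and the bar is the list median. For cold in young mice the list medians are -1.03 for interferon targets and -0.41 for class I genes, and all 10 macrophage markers lie above 0 in old against young mice at both temperatures (medians 0.56 and 0.74).

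Markers of class II-bearing cells were compared over the same groups, and their part in the class II results was not tested. All 10 macrophage markers tested were above 0 in old against young mice at both temperatures, with medians of 0.56 at room temperature and 0.74 in the cold. With limma 0 were called at 0.05, and 4 at room temperature and 7 in the cold had an unadjusted p under 0.05, as did 6.02% and 5.76% of all genes. Averaged over temperatures, 5 were called higher at an adjusted p under 0.25, as was Ctss, where 0.643% of all genes were, among them C1qa (0.96, adjusted p = 0.0728), a complement subunit made by macrophages. The summed level of the 10 markers was 42.1 to 93.1 TPM in young and 91.8 to 160 TPM in old mice at room temperature, and 36.7 to 73.8 TPM in young and 71.2 to 189 TPM in old mice in the cold. Without the 4 libraries, 10 and 8 of the 10 differences were above 0, with medians of 0.56 and 0.30. In the cold 1, C1qc, was then called higher, where 28 of 16824 genes were. With TPM rescaled without Gm20594, 1 marker was called higher at 0.05 at room temperature, 0 in the cold and 5 averaged over temperatures. Of all 16957 genes, 60, 30 and 92 were called higher in those fits.

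B cell markers were low in every library. Of 11 tested, 9 were above 0 in old against young mice at each temperature. At room temperature 2 and in the cold 1 had an unadjusted p under 0.05 in either direction, as did 6.02% and 5.76% of all genes. Without the 4 libraries 6 and 5 were above 0, with 1 and 0 at that p, beside 8.14% and 26.4% of all genes. The 11 genes summed to 0.146 to 1.42 TPM in young and 0.331 to 6.54 TPM in old mice, the highest value being that of old room temperature replicate 1, which also had the highest Cd74. Cd79a, a part of the B cell receptor, was at 0 in 8 of 19 libraries, and in young mice in the cold 3 of the 11 genes were called lower, where 16.3% of all genes were. Dendritic cell markers summed to 1.75 to 8.14 TPM over 10 genes, with 0 called at 0.05 in any comparison. Flt3, a growth factor receptor of these cells, was at 0 in 3 libraries. Of the 10 genes, 7 were above 0 in old against young mice at room temperature and 8 in the cold. An unadjusted p under 0.05 was found for 2 and 1. Without the 4 libraries 7 and 4 were above 0, with 3 and 0 at that p. At room temperature the sums were 2.32 to 4.82 TPM in young and 4.59 to 8.14 TPM in old mice. In the cold they were 3.05 to 3.86 TPM in young and 1.75 to 7.87 TPM in old mice. T cell markers summed to 0.241 to 5.32 TPM, with Cd3e, a part of the T cell receptor complex, at 0 in 11 libraries. All 10 T cell markers were above 0 in old against young mice in the cold, with 4 at an unadjusted p under 0.05, and 8 were above 0 without the 4 libraries, with 0 at that p. Plasma cell markers summed to 0.123 to 2.47 TPM over 5 genes, with 0 called at 0.05 between old and young mice and 1 at an unadjusted p under 0.05 in the cold.

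General leukocyte markers and neutrophil markers also differed in level between the groups, and their part in the class II results was not tested. The 6 leukocyte markers summed to a median of 7.74 TPM in young and 11.8 TPM in old mice at room temperature, and of 3.89 TPM in young and 9.32 TPM in old mice in the cold. All 6 were below 0 for cold in young mice (median -0.36), as the 7 class II genes were, with 1 called lower at 0.05 and 5 at 0.25, where 16.3% and 28.1% of all genes were. All 6 were above 0 in old against young mice averaged over temperatures (median 0.49), with 6 at an unadjusted p under 0.05, where 6.06% of all genes were, and 0 called at 0.05. That median was 0.24 without the 4 libraries, with 2 at an unadjusted p under 0.05, and with TPM rescaled without Gm20594 1 gene, Coro1a, was called higher. Neutrophil markers, 6 genes, summed to a median of 1.86 TPM in young and 8.49 TPM in old mice at room temperature, and of 0.744 TPM in young and 4.33 TPM in old mice in the cold. S100a8, a calcium-binding protein of neutrophils, differed by 1.58 between ages at room temperature (limma adjusted p = 0.204) and by 2.06 without the 4 libraries (adjusted p = 0.0334). Averaged over temperatures it differed by 1.29 (adjusted p = 0.0944), by 1.48 without the 4 libraries (adjusted p = 0.0418) and by 2.36 with TPM rescaled (adjusted p = 0.0439).

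**Figure D4:**
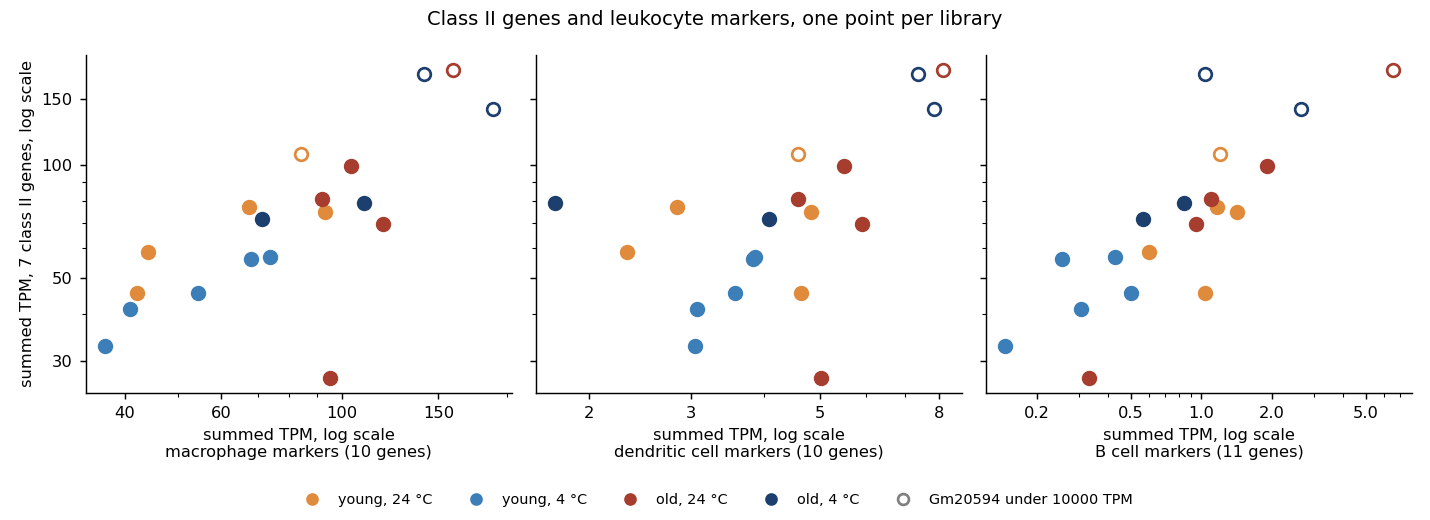
Summed TPM of the 7 class II genes in each library against the summed TPM of macrophage, dendritic cell and B cell markers, on log scales. Points are coloured by group, and open points are the 4 libraries with Gm20594 under 10000 TPM. The open points hold the highest class II sums (107 to 179 TPM), and old room temperature replicate 3 holds the lowest (27.2 TPM).

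All genes of a library share its scale and kind, and these differ between the 19 libraries. Across these libraries the members were correlated with each other to different degrees. The Pearson correlation with Cd74 of log2(TPM + 1) was 0.97 for H2-Ab1 and 0.93 for H2-Aa, the 2 highest among 8203 genes with a mean of at least 1 TPM. It was 0.82 for H2-DMb1, 0.79 for H2-DMa and 0.78 for Ciita, but 0.55 for Ctss, which ranked 1025. Outside the members, the 10 genes most like Cd74 were B2m (0.90), Anxa2, Gng11, Cd52, Pomp, C1s, Ctsh, H2-K1, Cdc42 and Fads3 (0.82). B2m and H2-K1 are class I genes, Ctsh is a cathepsin and Cd52 a leukocyte surface protein. Within the 15 libraries with high Gm20594, the correlation was 0.94 for H2-Ab1, 0.83 for H2-Aa, 0.75 for B2m and 0.40 for Ctss.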

How the data were processed

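The authors sequenced rRNA-depleted RNA of mouse BAT. Per their methods, the authors aligned reads with Rsubread and used edgeR and limma for normalization. The deposited log2 values, a column per library, are log2(TPM + 1), as their low values show. R 3.2.2 and limma 3.20.9 are named in the submitters' processing notes. The methods name a human reference although the gene IDs are of mouse, so the genome used is uncertain. The step that counted reads is not given in the sources used here. Coordinates are those of GENCODE M21 on GRCm38 and promoters those of RefSeq on GRCm38.p6.

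Groups came from the labels. Linear models were fitted to the deposited values with limma 3.58.1 in R 4.3.3, with empirical Bayes moderation, two-sided tests and Benjamini-Hochberg adjustment over all genes with a value above 0 in the fit. The threshold was an adjusted p of 0.05, and 0.25 was also tried. Age comparisons and the interaction used 1 fit of 4 groups over 19 libraries, and cold comparisons used the libraries of their own age. The 1 added to TPM makes fold changes of low genes too small. In 99.9% of 15823 genes above 0 in at least 2 libraries, values in every library were whole multiples of the value of a single read, within 0.02. This gave the reads behind each value and the relative depth, while total depth is unknown. On those reads, voom called 0 members in 4 comparisons, 1 averaged over temperatures and 3 for cold in young mice. Of all genes, voom called 272 of 15801 higher averaged over temperatures and 4010 of 15727 lower for cold in young mice. In old against young mice it called 100 genes higher and 62 lower at room temperature, and 149 and 49 in the cold. For the interaction it called 49 and 24 genes, and for cold in old mice 339 and 637.

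The members and gene lists were chosen with earlier results of these data known. By rule, all members, the other class II genes and regulators, the first 3 genes of any other list, the largest differences among genes called at room temperature, the 10 genes most like Cd74 and promoters of called members could be named. Canx, Tgtp1, C1qa and C1qc were named after their values were seen. A regulator that was counted in its list is not reported here by name. The tests were also run on simulated data with independent noise for each gene. Those data held no library kinds and no correlation between genes. Other computations used Python 3.11.15, numpy 2.4.6, pandas 2.3.3 and matplotlib 3.10.9. Alternatives were a filter that kept genes averaging 1 TPM or more, a pseudocount of 0.1, median centring, quantile normalization, rescaling without Gm20594, a trended and robust prior, library weights, other sets of libraries, covariates for library kind and replicate number, and each library left out. Voom on recovered reads, and rescaling together with leaving out the 4 libraries, were added after the data were seen.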

Additional observations from a re-analysis of the deposited data

How the results depend on the processing

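The count of members called depended on the settings, and the cause was not tested. For old against young mice in the cold it went from 0 to 5 with library weights and was 0 under the others. Averaged over temperatures it went from 0 to 1 at a threshold of 0.25 and with the filter on a mean of 1 TPM. It was also 1 with median centring, quantile normalization, rescaling without Gm20594 and voom, and 2 with library weights. With a library left out it went from 0 to 1 (1 without old cold replicate 4). Of all 16957 genes, 14 were called higher in the main fit, 109 at 0.25, 73 with median centring and 121 with quantile normalization. Rescaling called 92 of them higher and library weights 666. The filter called 37 of 8203 genes higher, voom 272 of 15801 and the fit without old cold replicate 4 180 of 16945. For cold in young mice the count of members went from 1 to 6 at a threshold of 0.25 and to 4 with the filter. It was 0 with median centring or with all 19 libraries in 1 fit, 2 with rescaling or library weights and 3 with voom. With a library left out it ranged from 0 to 3, being 2 without young room temperature replicate 4 and 3 without replicate 5. Of all 16501 genes, 2694 were called lower in the main fit, 4641 at 0.25 and 1856 with median centring. Rescaling called 3620 of them lower and library weights 3141. The filter called 1953 of 8130 genes lower, the fit of 19 libraries 1139 of 16957 and voom 4010 of 15727. Without young room temperature replicate 4 it was 2980 of 16470, and without replicate 5 2244 of 16184. At room temperature, for the interaction and in old mice the count of members was 0 in each setting.

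Signs of small differences changed. For old against young mice at room temperature, H2-Aa was -0.10 without the 4 libraries with low Gm20594 and -0.13 when also rescaled, and ranged from -0.24 to 0.34 with a library left out. H2-Ab1 was -0.030 and -0.073 in those fits (-0.19 to 0.48 with a library left out). H2-DMb1 was -0.11 with a pseudocount of 0.1, -0.082 rescaled and -0.23 rescaled without the 4 libraries (-0.043 to 0.41). Cd74 was 0.014 with library weights (-0.46 to 0.34), and H2-DMa and Ciita ranged from -0.33 to 0.041 and from -0.0081 to 0.18. Ciita was -0.094 in the cold and -0.017 averaged without the 4 libraries, and -0.45 and -0.15 when also rescaled. Interaction terms were -0.037 for H2-DMb1, -0.16 for Ciita and -0.23 for Ctss without the 4 libraries, -0.12 for H2-DMb1 and -0.074 for Ciita with library kind as a covariate, -0.59 for Ciita when also rescaled and -0.11 for Ctss with voom, and with a library left out they ranged from -0.056 to 0.40 for H2-DMb1 and from -0.064 to 0.43 for Ctss. For cold in old mice, Ciita was 0.11 with median centring and 0.21 with library weights (-0.16 to 0.12). Of the single-gene differences, 513 kept direction and side of the threshold under another setting, 26 came to pass it, 3 no longer passed and 21 changed sign, and with a library left out 637, 5, 6 and 17 did.

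Whether the replicate numbers pair the libraries is not settled. Deviations of same-numbered libraries correlated by -0.22 to 0.50 (mean 0.08, 27 pairs), with 14 pairs above 0.1. Those of libraries with other numbers correlated by -0.42 to 0.57 (mean -0.02, 108 pairs), with 23 pairs above 0.1. The highest correlation of each kind was between libraries with low Gm20594, so these values do not separate replicate number from library kind. Of the 19 libraries, 3 correlated best with their own number. With the replicate block 0 members were called between old and young mice and 1, as without it, for cold in young mice. Among all genes, library weights called 942 higher and 110 lower in old against young mice in the cold, beside 1 and 4. Leaving out the 4 libraries called 28 and 1311, and leaving out old cold replicate 4 alone 163 and 12. Depth limits H2-DMa, H2-DMb1 and Ciita, which rest on at most 57 reads in a library.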
